A study of Mus musculus with 6 samples.

Results

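The fibroblast growth factors (FGFs) and their receptors were followed through the reprogramming of mouse tail-tip skin cells. The group described here comprised 10 genes of 49315 in the deposited count table, found by matching Ensembl identifiers to the mouse symbols of 7 ligands (Fgf2, Fgf5, Fgf7, Fgf9, Fgf10, Fgf18 and Fgf21) and 3 receptors (Fgfr1, Fgfr2 and Fgfr4). All 10 symbols were matched. The cells came from wild type mice and were profiled by RNA sequencing in 6 libraries, 2 in each of 3 groups. Fibroblasts given negative control lentiviral vectors stood for day 0. Early cells were fibroblasts given vectors for CRISPR activation (CRISPRa) of the SAM type, which draws activators to a gene's own promoter with a Cas9 that does not cut, and stood for day 7. Early replicate 2 was labelled as partially reprogrammed. Late cells had CRISPRa vectors followed by isolation of colonies, carried the label of cardiac progenitors and stood for day 22. The sources used here do not give the genes targeted by CRISPRa, the animals behind each group or whether colonies were pooled. Which columns were early and which late was read from their names only, so early and late values would change places if that reading were wrong.

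FGFs are secreted proteins that bind heparan sulfate on the cell surface and activate receptor tyrosine kinases, which signal through the adaptor FRS2 and the RAS to ERK cascade. Fgf7 and Fgf10 are made by mesenchymal cells such as dermal fibroblasts and act mainly on the epithelial form of FGFR2, while FGFR1 is the usual receptor of mesenchymal cells. In the embryo Fgf10 marks second heart field progenitors, Fgf9 is a product of the epicardium and endocardium, and Fgf2 is a mitogen of fibroblasts and endothelial cells.

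Values are CPM, a gene's counts scaled to a common library total after TMM normalization. The words rose and fell are kept for genes with an adjusted p under 0.05 in edgeR's quasi-likelihood test over the 16688 genes kept by its expression filter. Of the 10 FGF genes, 8 were kept. Fgf21 and Fgfr4 had too few counts and were not tested, and Fgf5 was kept with at most 21 counts in a library. Total counts ranged from 20172874 to 40122999, which puts the floor of 3 counts at 0.0748 to 0.149 CPM before scaling.

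The libraries of a group were not always alike. Across genes, which are no independent replicates, Pearson's r of log2 CPM was 0.978 between the fibroblast libraries, 0.939 between the early and 0.883 between the late ones. It was 0.945 for early replicate 1 with late replicate 1. Late replicate 2 had 10.3% of its counts from the mitochondrial genome against 1.48% to 2.16% elsewhere, and its 8 cardiomyocyte markers summed to 40700 CPM against 14.5 to 105 in the other 5 libraries. The 8 fibroblast markers summed to 11500 and 13300 CPM in fibroblasts, 5690 and 14500 in early and 5140 and 4760 in late libraries. In bulk RNA, fewer cells of a type and less RNA per cell cannot be told apart. Whether replicates were separate cultures or animals is not stated, so each p-value reflects the spread among these libraries alone, which may be technical.

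Fgf10, Fgf7 and Fgf2 were the abundant ligands of the fibroblasts, and all 3 were lower after CRISPRa in every library. Their promoter windows are shown because these genes carried most of the change among the ligands listed above. Each window runs from 250 bases before to 50 bases after the RefSeq transcription start (GRCm38.p6, forward strand for all 3), with matches to the GC box GGGCGG on either strand in capitals. The Fgf10 window lies at chr13:118714449-118714748, the Fgf7 window at chr2:126034408-126034707 and the Fgf2 window at chr3:37348403-37348702. The Fgf10 gene model begins further upstream, at 118669791, so its window does not lie at the start of that model.
Fgf10: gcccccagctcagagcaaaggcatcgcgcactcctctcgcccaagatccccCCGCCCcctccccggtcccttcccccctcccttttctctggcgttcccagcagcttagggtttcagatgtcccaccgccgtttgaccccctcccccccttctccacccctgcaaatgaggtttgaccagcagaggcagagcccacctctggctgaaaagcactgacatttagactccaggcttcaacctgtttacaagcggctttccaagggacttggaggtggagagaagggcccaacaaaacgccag
Fgf7: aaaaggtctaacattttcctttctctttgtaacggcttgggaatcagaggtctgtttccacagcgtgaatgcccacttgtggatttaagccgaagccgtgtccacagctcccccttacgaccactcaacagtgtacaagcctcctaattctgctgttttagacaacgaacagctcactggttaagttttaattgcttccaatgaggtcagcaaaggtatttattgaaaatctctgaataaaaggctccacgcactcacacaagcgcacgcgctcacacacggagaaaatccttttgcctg
Fgf2: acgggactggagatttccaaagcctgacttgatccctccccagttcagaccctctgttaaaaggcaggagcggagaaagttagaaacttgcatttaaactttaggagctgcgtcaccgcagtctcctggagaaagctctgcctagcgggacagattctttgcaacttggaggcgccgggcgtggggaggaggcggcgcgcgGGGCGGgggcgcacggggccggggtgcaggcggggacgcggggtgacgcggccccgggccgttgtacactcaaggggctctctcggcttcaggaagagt

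The 3 windows differed in composition. GC content was 60.7% for Fgf10, 62.7% for Fgf2 and 45.7% for Fgf7, against a median of 52.7% over 32817 RefSeq windows of the same length. The Fgf2 window held 24 CpG dinucleotides, the Fgf7 window 11 and the Fgf10 window 10, against a median of 7. A GC box was matched 1 time each in the Fgf10 and Fgf2 windows and not in that of Fgf7, and 35.6% of all windows hold a match. Searches on both strands for TATAAA (in 13.6% of windows), the AP-1 letters TGANTCA (7.81%), the GATA letters GATAAG (7.45%) and the TEAD letters GGAATG (14.7%) found no match in any of the 3, so no motif overlapped another. Windows of 9 members were matched by symbol. Of the members other than these 3, the Fgf5 window (GC content 68.3%) held 1 TATAAA and 1 GC box, and the Fgf18 window, the most GC-rich of the 9 at 78.7%, held 47 CpG.

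Fgf10 (ENSMUSG00000021732, chromosome 13, 118669791 to 118792115 in GRCm38) had the largest differences from fibroblasts among the 8 tested members. It was at 293 and 283 CPM in fibroblasts, 5.52 and 12.4 CPM in early cells and 11.1 and 1.35 CPM in late cells. All CRISPRa libraries thus lay far below both fibroblast libraries, while early and late values overlapped. The log2 fold change against fibroblasts was -5.01 ± 1.10 (SE) in early cells and -5.53 ± 1.13 in late cells, 32.2-fold and 46.3-fold lower. Neither passed the test (edgeR adjusted p = 0.0726 and 0.0654), and both passed in DESeq2 (adjusted p = 6.62e-06 and 4.85e-07). DESeq2 called 4046 genes in early and 4722 in late cells, where edgeR called 255 and 237. With a term for replicate number in the edgeR fit (the replicate block), 0 members were called in either comparison. Without late replicate 1 the late change was -7.82. The late libraries differed 8.26-fold from each other, more than the 1.04-fold of the fibroblast libraries. Gm16263, an antisense gene that shares 123 exon bases with Fgf10 on the opposite strand, had 317 and 290 counts in fibroblasts and at most 2 in any other library. Whether its reads came from either strand cannot be told, since the strand setting is not given.

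Fgf7 (ENSMUSG00000027208, chromosome 2, 126034658 to 126091185), keratinocyte growth factor, was at 234 and 153 CPM in fibroblasts. Early replicate 1 was at 26.5 and early replicate 2 at 124 CPM, and late libraries were at 11.3 and 11.0 CPM. The early libraries differed 4.67-fold and the late ones 1.02-fold. Both late libraries lay below both early libraries, which lay below both fibroblast libraries. The late value was 17.3-fold below fibroblasts (log2 fold change -4.12 ± 0.79, edgeR adjusted p = 0.0633), which missed the threshold. It passed in DESeq2 (adjusted p = 2.11e-06), which called 4722 genes in this comparison against 237 by edgeR. With the replicate block 0 members were called. The early difference was -1.37 ± 0.71 (adjusted p = 0.259) and that of late against early cells -2.75 ± 0.75 (adjusted p = 0.390). Without early replicate 2 the early difference was -2.83.

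The early library with more Fgf7 also had more of several fibroblast markers. Pdgfra, a growth factor receptor of mesenchymal cells, was at 38.2 CPM in early replicate 1 and 530 in early replicate 2, and the collagen gene Col3a1 at 17.0 and 3890 CPM. In fibroblasts Pdgfra was at 514 and 329 CPM and in late cells at 110 and 56.0 CPM. Col3a1 was at 1080 and 1300 CPM in fibroblasts, so early replicate 2 lay above both for this gene. Of the 8 fibroblast markers Vim alone went the other way. It was at 2940 CPM in early replicate 1 and 2390 in early replicate 2, against 7430 and 7060 in fibroblasts. Fgf10 was at 12.4 CPM in early replicate 2, far below its fibroblast values. In the late libraries 5 of 8 fibroblast markers lay below both fibroblast libraries, beside 32.9% of all genes kept. The part of fibroblast content in the Fgf7 values was not tested.

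Fgf2 (ENSMUSG00000037225, chromosome 3, 37348346 to 37410108) was the only member called by edgeR in any of the 3 comparisons. It was at 264 and 195 CPM in fibroblasts, 92.8 and 70.4 CPM in early cells and 24.0 and 20.2 CPM in late cells. The 3 groups were stepped without overlap, and replicates differed by 1.35-fold, 1.32-fold and 1.19-fold. In late cells Fgf2 fell by 3.38 ± 0.29 on the log2 scale, 10.4-fold (edgeR adjusted p = 0.0304). With the replicate block 0 members were called, so this call was lost there. The call was lost without fibroblast replicate 1 (0.226), fibroblast replicate 2 (0.190) or late replicate 2 (0.0736 as edgeR adjusted p), each of which leaves a single library in its group, while the log2 fold change stayed between -3.59 and -3.16. The early difference was -1.49 ± 0.27 (edgeR adjusted p = 0.0595) and the late against early difference -1.88 ± 0.27 (edgeR adjusted p = 0.289). Both missed the threshold, and both passed in DESeq2 (adjusted p = 0.00016 and 6.15e-06). DESeq2 called 4046 and 1100 genes in these comparisons, where edgeR called 255 and 0. Nudt6, which overlaps 9.44% of the Fgf2 exon bases on the opposite strand, was at 1.66 to 2.72 CPM in 5 libraries and at 9.18 CPM in late replicate 2, so it did not follow Fgf2.

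**Figure D1:**
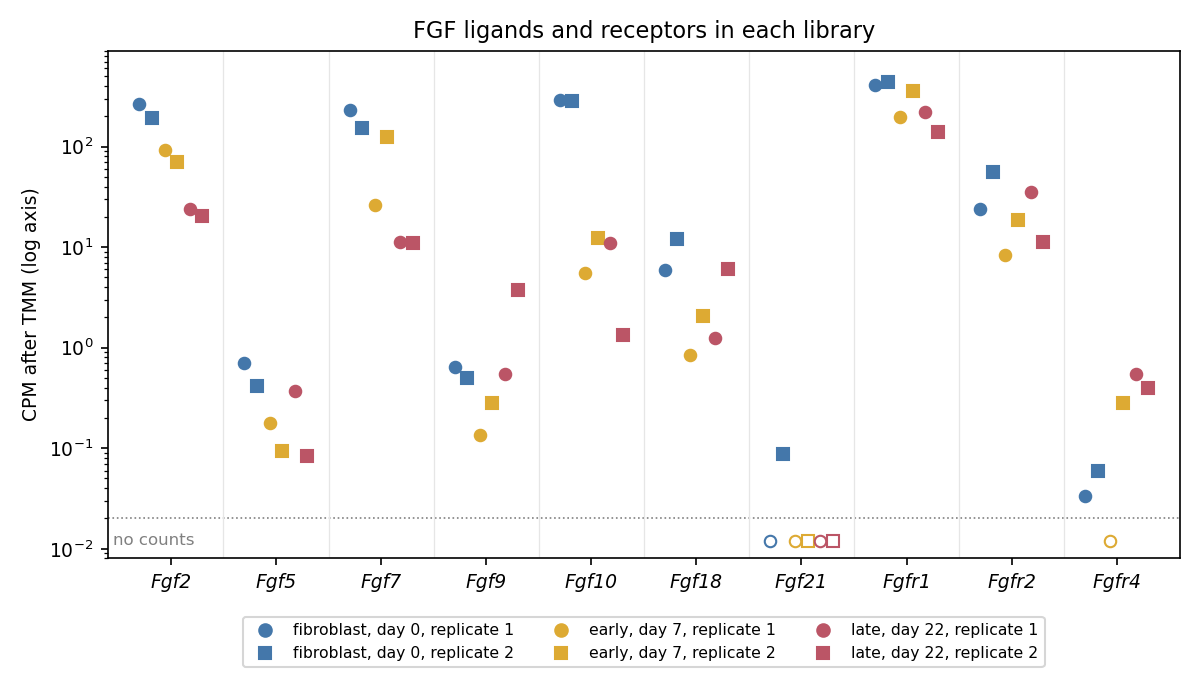
CPM after TMM on a log axis for each of the 10 FGF genes, one point per library, coloured by group, with circles for replicate 1 and squares for replicate 2. Open symbols under the dotted line are libraries without counts. Fgf10 stands at 293 and 283 CPM in fibroblasts and at or below 12.4 CPM elsewhere, Fgf2 steps down without overlap, and Fgf9 is highest in late replicate 2 at 3.79 CPM.

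Fgf18 (ENSMUSG00000057967, chromosome 11, 33117430 to 33147400), a ligand of bone and lung development, measured 5.88 and 12.0 CPM in the fibroblast libraries against 0.846 and 2.08 CPM in the early ones. Of the late libraries, replicate 1 had 1.25 CPM and replicate 2 had 6.07 CPM, the latter within the fibroblast range. The early libraries thus lay below both fibroblast libraries and the late ones did not. The early log2 fold change was -2.61 ± 0.98 (edgeR adjusted p = 0.154) and the late one -1.29 ± 0.93 (edgeR adjusted p = 0.371). The early one passed in DESeq2 (adjusted p = 0.0294), which called 4046 genes in that comparison against 255 by edgeR.

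Fgf9 (ENSMUSG00000021974, chromosome 14, 58070547 to 58112720) stood out by a late library. Fibroblasts had 0.638 and 0.50 CPM and early cells 0.134 and 0.284 CPM. Late replicate 1 had 0.542 CPM, near the fibroblasts, and late replicate 2 had 3.79 CPM from 135 counts, a 7.0-fold gap. The log2 fold change of late cells was 1.93 ± 1.0 against fibroblasts (edgeR adjusted p = 0.236) and 3.36 ± 1.11 against early cells (adjusted p = 0.434). Without late replicate 2 the change against fibroblasts was -0.07.

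The remaining ligands were near the floor. Fgf5 (ENSMUSG00000029337, chromosome 5, 98254184 to 98277030), which ends the growth phase of hair follicles, had 21 and 14 counts in fibroblasts, 4 and 2 in early and 9 and 3 in late libraries. That is 0.705 and 0.412 CPM, 0.178 and 0.0946 CPM, and 0.375 and 0.0842 CPM. It reached the filter's minimum of 0.38 CPM before scaling in 1 fibroblast and 1 late library only. It is counted among the tested members, but its fitted differences rest on few counts. None was called (edgeR adjusted p = 0.215 in early and 0.322 in late cells against fibroblasts, and 0.862 for late against early cells). Fgf21 (ENSMUSG00000030827, chromosome 7, 45613886 to 45615490), an endocrine FGF of liver and fat, had 3 counts in fibroblast replicate 2 and 0 in the other 5 libraries. A count of 0 allows up to 0.149 CPM in the shallowest library, counting error only, and a difference in Fgf21 was not detectable at this depth.

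Fgfr1 (ENSMUSG00000031565, chromosome 8, 25513654 to 25575718) was the most abundant receptor in every library. It was at 411 and 441 CPM in fibroblasts, 196 and 362 CPM in early cells and 222 and 141 CPM in late cells. Both CRISPRa groups lay below both fibroblast libraries and overlapped each other. The log2 fold change was -0.61 ± 0.39 in early cells (edgeR adjusted p = 0.345) and -1.23 ± 0.39 in late cells, 2.35-fold lower (adjusted p = 0.111). The late difference passed in DESeq2 (adjusted p = 0.0325) and in edgeR without a filter on low counts (adjusted p = 0.0208). These settings called 4722 and 2495 genes in this comparison, where edgeR with its filter called 237. As for Fgf7, early replicate 2 was the higher of the early libraries.

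Fgfr2 (ENSMUSG00000030849, chromosome 7, 130162451 to 133123350), the receptor of Fgf7 and Fgf10, was at 24.2 and 56.0 CPM in fibroblasts, 8.42 and 18.5 CPM in early cells, and 35.8 and 11.3 CPM in late cells. Early libraries lay below fibroblasts, and the late libraries, 3.16-fold apart, overlapped both other groups. None of the 3 differences passed (edgeR adjusted p = 0.228 for early and 0.493 for late against fibroblasts, and 0.767 between them). Counts per gene do not separate the epithelial from the mesenchymal splice form of Fgfr2. The Fgfr2 gene model shares 314 exon bases with Ctbp2 on the same strand, and Ctbp2 ranged only from 42.7 to 64.5 CPM.

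Fgfr4 (ENSMUSG00000005320, chromosome 13, 55152640 to 55168759), a receptor of liver and developing muscle, had 1 and 2 counts in fibroblasts, 0 and 6 in early and 13 and 14 in late libraries. Late libraries were at 0.542 and 0.393 CPM, above all 4 others. The ratio of late cells over the 3 fibroblast counts was 9.63, with an exact 95% interval of 2.96 to 49.6 that covers counting error only.

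In early cells both libraries lay below both fibroblast libraries for 8 of the 10 members, Fgf5 with its low counts among them, and above for 0, against 34.4% and 32.3% of the 16688 genes kept. In late cells Fgf2, Fgf7, Fgf10, Fgfr1 and the low Fgf5 lay below without overlap, 5 of 10 members, and 1, Fgfr4, lay above, against 32.9% and 35.7% of genes. Both comparisons share the fibroblast libraries. The members were chosen with earlier results of these data known, so these counts are no test of the family, and Fgf21 and Fgfr4 are not among the genes kept. Of the 11 further FGF ligands, most near the floor, 3 lay below and 2 above in early cells. In late cells 1 of them lay below and 4 above. Macrophage markers moved the same way, with 7 of 8 in early and 6 of 8 in late cells below both fibroblast libraries. Their sums were 265 and 1090 CPM in fibroblasts, 115 and 51.1 in early and 71.2 and 178 CPM in late libraries, and their part in the member values was not tested. By the test, 0 of 8 passed in early cells and 1 of 8, Fgf2, fell in late cells, where 1.53% and 1.42% of all genes were called and 0.779% were called lower in late cells. At an unadjusted p under 0.05 the numbers were 3 and 4 of 8, beside 29.8% and 32.5% of all genes, so little can be read from them. Late against early cells, 2 members were lower without overlap (Fgf2 and Fgf7) and 2 higher (Fgf9 and Fgfr4), against 17.6% and 16.1% of genes, shares near which little can be read from 10 genes. No member was called there by edgeR, which called 0% of all genes. At an unadjusted p under 0.05, 3 members and 10.2% of all genes passed. DESeq2 called 2 members, Fgf2 and Fgf7, beside 1100 genes in all. The median log2 fold change over all genes tested was 0.00 in early and 0.11 in late cells against fibroblasts.

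**Figure D2:**
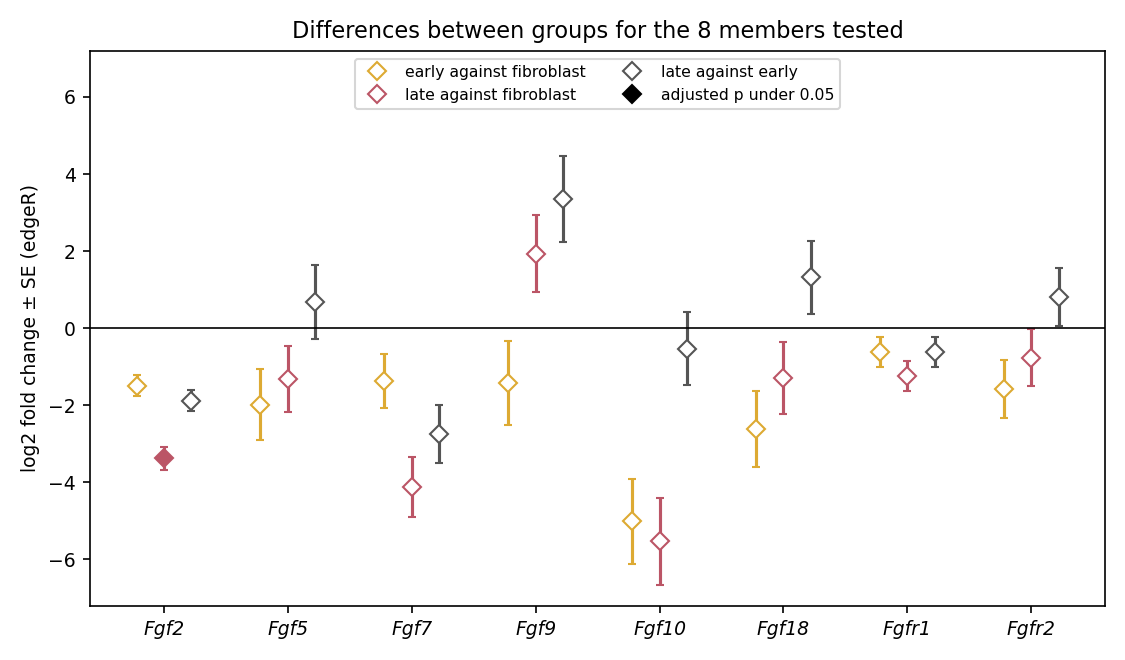
Log2 fold change with its standard error from edgeR for the 8 tested members in the 3 comparisons, with a filled symbol where the adjusted p was under 0.05. Fgf2 in late cells against fibroblasts, at -3.38 ± 0.29, is the filled point, while Fgf10 lies lowest at -5.01 and -5.53 with standard errors above 1.

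Summed over the members, the ligand level differed between the groups by more than the receptor level. The 7 ligands summed to 798 and 644 CPM in fibroblasts, 126 and 209 CPM in early and 48.6 and 42.5 CPM in late cells. The groups did not overlap for these 7 ligands. Fgf1, which is not among them, alone had 144 CPM in late replicate 2, between the 2 early sums, so the step from early to late does not extend to all FGF ligands. The 3 receptors summed to 435 and 497, 205 and 381, and 258 and 153 CPM. To compare genes with each other, CPM was divided by the union length of a gene's exons in kilobases. On that scale ligands summed to 180 and 148 in fibroblasts and 10.8 and 12.6 in late cells, and receptors to 44 and 50.1 and to 26.1 and 15.5. For these 7 ligands and 3 receptors, the ligand sum was above the receptor sum in fibroblasts and below it in late cells. The order holds for these members only, since Fgf1, which is not among them, alone had 26.4 CPM per kb in late replicate 2, above that library's receptor sum of 15.5.

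The order of the members per kilobase changed with the group. In fibroblasts Fgf10 (62.5 CPM per kb) and Fgf7 (59.6), which overlapped, were followed by Fgfr1 (43.1), Fgf2 (33.8), Fgf18 (7.54) and Fgfr2 (3.88), with Fgf18 and Fgfr2 overlapping and the others clear of their neighbours. Fgf5, Fgf9, Fgf21 and Fgfr4 were at 0.223 CPM per kb or below. In early cells the order was Fgfr1 (28.3), Fgf7 (23.1) and Fgf2 (12.0), each overlapping the next except Fgf2, and then Fgf10 (1.94), Fgfr2 (1.30) and Fgf18 (1.23), which overlapped. In late cells Fgfr1 (18.4) was clear of all others, and Fgf7 (3.44), Fgf2 (3.26), Fgf18 (3.08), Fgfr2 (2.28) and Fgf10 (1.36) each overlapped the next. With the longest transcript as the length, Fgfr1 came above Fgf7 and Fgf10 in fibroblasts as well.

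Shares of the ligand sum moved accordingly. Fgf10 made up 35.3% and 41.5% of the summed ligand level per kb in fibroblasts and 5.03% and 5.07% in early cells, and 22.5% and 2.32% in the late libraries. Fgf18 made up 40.5% in late replicate 2 and at most 9.80% in any other library. Fgfr1 was between 86.1% and 96.1% of the receptor sum in all 6 libraries.

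**Figure D3:**
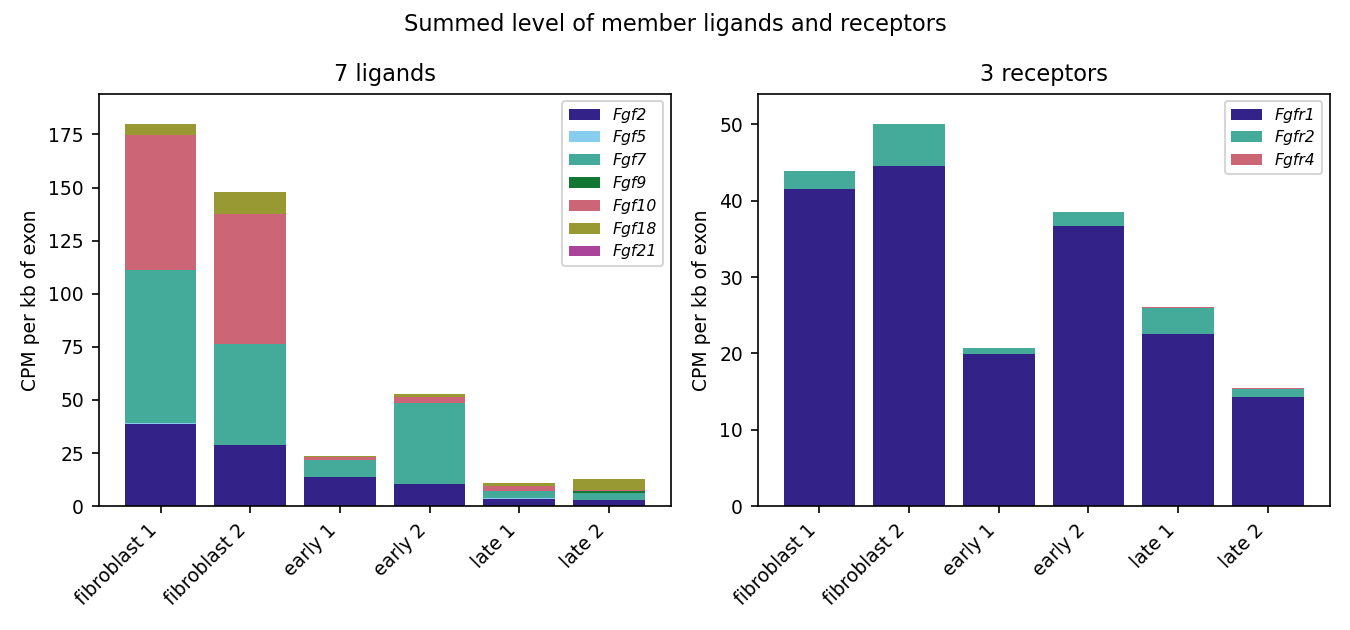
Stacked bars of CPM per kb of exon for the 7 ligands (left) and the 3 receptors (right) in each library, both axes starting at 0 with different ranges. The ligand bars reach 180 and 148 for fibroblasts and 10.8 and 12.6 for late cells, and Fgfr1 fills most of every receptor bar.

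Further FGF genes outside the 10 were mostly near the floor, and Fgf1, Fgf12 and Fgf16 were highest in late replicate 2. Of 11 further ligands 3 were tested and 0 were called in any comparison. Of all genes, 1.53% in early and 1.42% in late cells were called against fibroblasts, and 0% in late against early cells. A count of 0 thus says little about 3 ligands, of which Fgf15 was tested through CRISPRa libraries only. Fgf1, an FGF that binds all FGF receptors, had 4.16 and 4.65 CPM in fibroblasts against 0.445 and 0.663 CPM for early libraries. Late replicate 1 had 2.46 CPM and late replicate 2 had 144 CPM. Its late difference from fibroblasts of 4.06 ± 1.67 on the log2 scale (edgeR adjusted p = 0.164) was -0.85 without late replicate 2. Fgf16, an FGF of the embryonic heart, and Fgf12, an intracellular FGF homologous factor that binds sodium channels, were chosen after their values were seen. Late replicate 2 had 14.5 CPM of Fgf16 and 12.0 CPM of Fgf12, where no other library exceeded 0.441 and 0.50 CPM. Fgf12 passed the filter only through the late libraries, so its values are a description without a test.

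The library with these values was also the library with the heart muscle transcripts. Its cardiomyocyte markers summed to 40700 CPM against 60.9 CPM in late replicate 1, and its endothelial markers to 727 against 24.0 CPM. The 8 epicardial and mesothelial markers summed to 275 and 224 CPM in late replicates 2 and 1, mostly from Krt19, at 225 and 202 CPM. The sums were 462 and 142 CPM in early replicates 1 and 2, with Krt19 at 444 and 105 CPM, so this level was not particular to late cells. In late cells 7 of the 8 lay above both fibroblast libraries and 1, Tbx18, lay below, beside 35.7% and 32.9% of all genes kept. The defining epicardial factor Wt1 was at 7.13 and 0.834 CPM in late replicates 2 and 1. Erythroid markers summed to 1040 CPM in late replicate 2 and at most 4.08 CPM elsewhere, and adipocyte markers to 350 against at most 79.1 CPM. The part of these cell types in the Fgf1, Fgf9, Fgf12 and Fgf16 values was not tested.

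**Figure D4:**
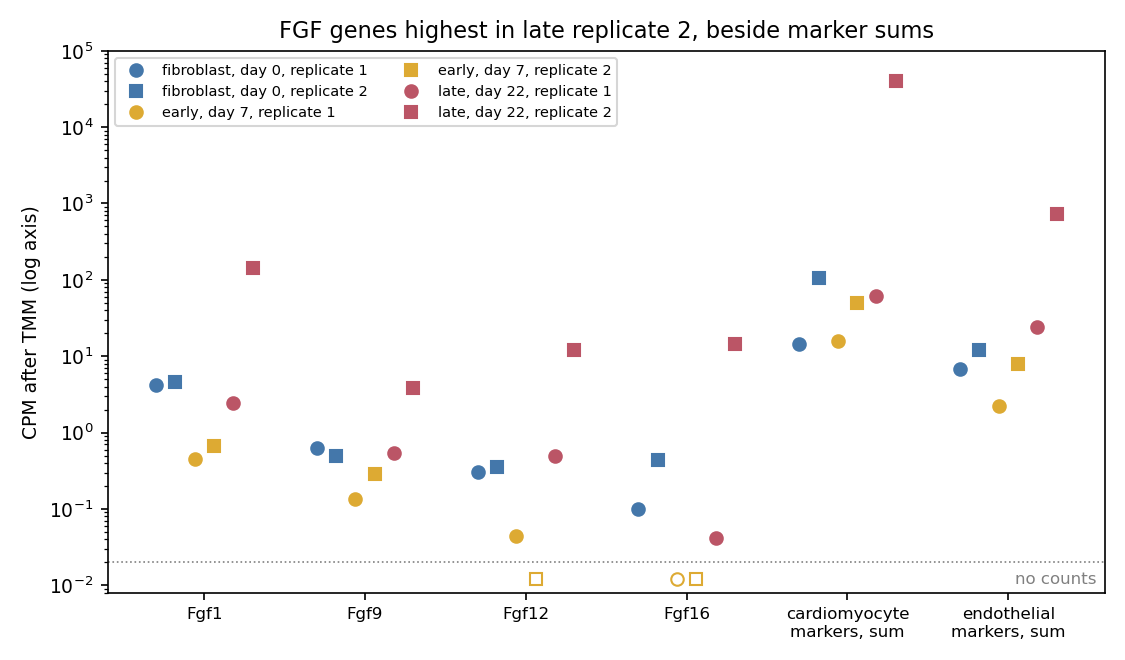
CPM after TMM on a log axis for Fgf1, Fgf9, Fgf12 and Fgf16 and for the summed cardiomyocyte and endothelial markers, one point per library. Open symbols under the dotted line are libraries without counts. Late replicate 2 is the highest point in each column, at 144 CPM for Fgf1 and 40700 CPM for the cardiomyocyte sum.

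Of the remaining FGF receptors, Fgfr3 was highest in the late libraries. Fgfr3, a receptor of epithelia and cartilage, was at 1.21 and 1.88 CPM in fibroblasts, 2.0 and 1.14 CPM in early cells and 23.2 and 13.6 CPM in late cells. Both late libraries thus lay above the 4 others. The log2 fold change was 3.57 ± 0.59 against fibroblasts (edgeR adjusted p = 0.0559) and 3.55 ± 0.59 against early cells (edgeR adjusted p = 0.290). Both passed in DESeq2 (adjusted p = 3.68e-08 and 3.87e-07), which called 4722 and 1100 genes in these comparisons, against 237 and 0 by edgeR. Fgfrl1, a receptor without a kinase domain, was at 63.9 and 76.3, 14.9 and 150, and 26.3 and 20.0 CPM, with neither group called. Fgfbp1, a carrier that releases FGFs from the matrix and was chosen after its values were seen, had 130 counts in late cells against 2 in fibroblasts. It passed the filter only through the late libraries, so these counts are a description without a test.

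Markers of simple epithelium moved with Fgfr3. All 8 of them lay above both other groups in both late libraries. Of all genes kept, 35.7% lay above fibroblasts and 16.1% above early cells. The marker sums were 282 and 88.4 CPM against 0.588 to 2.89 CPM in the other 4 libraries. Late replicate 1, with the larger sum, was also the late library with more Fgfr3, Fgfr2 and Fgfbp1. Keratinocyte markers summed to 19.3 and 12.5 CPM in late libraries and 5.54 to 8.73 CPM elsewhere. In late cells 4 of 8 lay above both fibroblast libraries and 2 of 8 above both early libraries. These counts stand beside the same 35.7% and 16.1% of all genes, so little can be read from 8 markers. Trp63 was at 8.13 and 3.0 CPM in late cells and overlapped its early values of 3.30 and 1.61 CPM. Sfn was at 7.54 and 4.27 CPM in late and 1.51 and 0.994 CPM in early cells. Krt1 was at 0 in every library and Krt5 at or below 0.168 CPM. The part of epithelial cells in these values was not tested.

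No coreceptor or heparan sulfate core protein was called. Of all genes, 1.53% in early and 1.42% in late cells were called against fibroblasts, so a count of 0 says little about groups of this size. Of 9 coreceptors and binding proteins 7 were tested and 0 called. Fgfbp1 is counted among the tested ones through the late libraries alone. Cdh2, N-cadherin, was the most abundant, at 395 and 563 CPM in fibroblasts, 236 and 599 in early and 219 and 297 in late cells. Flrt2, a transmembrane protein that binds FGF receptors, was at 201 and 169, 52.3 and 228, and 64.2 and 32.4 CPM. Of 12 heparan sulfate core proteins 11 were tested and 0 called. The glypican Gpc4 was at 681 and 838 CPM in fibroblasts, 51.4 and 182 in early and 73.5 and 44.6 CPM in late cells. Its log2 fold change was -2.70 ± 0.66 in early and -3.68 ± 0.69 in late cells (edgeR adjusted p = 0.0804 and 0.0613). Hspg2, perlecan, the most abundant core protein, was at 897 and 925, 869 and 727, and 447 and 1020 CPM. Sdc2, a syndecan chosen after its values were seen, was 4.37-fold lower in early and 5.03-fold lower in late cells (adjusted p = 0.0690 and 0.0622).

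Genes that make and edit heparan sulfate included Hpse and Hs6st2, both of which rose in early cells. Of 20 tested, 2 rose and 0 fell in early cells and 1 rose in late cells, beside 1.53% and 1.42% of all genes called. A fitted value below fibroblasts was found for 14 and 16, beside 49.7% and 45.9% of all genes. Hs6st3 and Ndst4 entered these counts and medians through the fibroblast libraries alone. The median log2 fold change was -0.56 in early and -0.80 in late cells, beside 0.00 and 0.11 for all genes. Hpse, heparanase, which cleaves heparan sulfate, was at 1.48 and 2.18 CPM in fibroblasts, 30.8 and 35.2 CPM in early cells and 15.9 and 10.3 CPM in late cells. It rose by 4.17 ± 0.41 on the log2 scale in early cells and by 2.84 ± 0.39 in late cells (edgeR adjusted p = 0.0289 and 0.0485). The early call was lost without either fibroblast library (0.218 and 0.222) or early replicate 1 (0.0859 as edgeR adjusted p). The late call was lost without any of 5 libraries (edgeR adjusted p from 0.0518 to 0.306), late replicate 1 being the exception. Hs6st2, a 6-O-sulfotransferase, was at 19.7 and 26.0, 155 and 160, and 127 and 73.7 CPM. It rose by 2.79 ± 0.34 in early cells (edgeR adjusted p = 0.0408), a call lost without either fibroblast library (0.253 and 0.243) or either early library (0.123 and 0.0636), and its late value of 2.14 ± 0.33 missed the threshold (adjusted p = 0.0556). Sulf2, which removes 6-O-sulfate, was at 356 and 244, 432 and 504, and 317 and 254 CPM. Extl3, a glycosyltransferase of chain synthesis, was at 372 and 359, 129 and 184, and 120 and 132 CPM (log2 fold change -1.22 ± 0.25 and -1.54 ± 0.25, adjusted p = 0.0680 and 0.0559).

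Adaptors and the RAS to ERK cascade had small differences, mostly toward lower values. Of 23 genes, all tested, 0 were called, beside 1.53% and 1.42% of all genes against fibroblasts, so a count of 0 says little about a group of this size. In early cells 11 and in late cells 14 lay below both fibroblast libraries without overlap, against 34.4% and 32.9% of all genes, and 19 and 18 had a lower fitted value. The median log2 fold change was -0.26 in early and -0.35 in late cells, within a range of -1.30 to 0.86 over both. The lowest was the adaptor Shc1 in late cells, chosen after its values were seen, 2.47-fold lower (edgeR adjusted p = 0.0632). Ptpn11, the phosphatase SHP2, was at 423 and 484, 237 and 239, and 221 and 289 CPM (adjusted p = 0.0826 and 0.0922). Crk, an adaptor, was at 318 and 336, 282 and 245, and 235 and 209 CPM.

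Among feedback inhibitors and transcriptional targets of the cascade, Phlda1 was the gene called. Of 13 inhibitors 0 were called, beside 1.53% and 1.42% of all genes against fibroblasts, so a count of 0 says little here. Their median log2 fold change was 0.13 in early and -0.34 in late cells, beside 0.00 and 0.11 for all genes. Spred1 was at 252 and 161, 168 and 187, and 145 and 116 CPM, and Lrig1 at 183 and 140, 136 and 165, and 90.7 and 118 CPM. Of 12 targets 1 rose and 0 fell in early cells and 0 were called in late cells, with medians of 1.14 and 1.10. The shares and medians of all genes given for the inhibitors apply here too. Phlda1, an early response gene, was at 25.2 and 15.2 CPM in fibroblasts, 161 and 287 in early and 136 and 111 CPM in late cells. It rose by 3.47 ± 0.43 in early cells (edgeR adjusted p = 0.0411) and its late value of 2.61 ± 0.42 missed the threshold (adjusted p = 0.0556). The early call was lost without either fibroblast library (0.218 and 0.250) or early replicate 1 (0.0783 as edgeR adjusted p). Egr1, an immediate early gene chosen after its values were seen, was at 11.4 and 29.0, 106 and 100, and 123 and 75.5 CPM (log2 fold change 2.35 ± 0.51 and 2.29 ± 0.51, adjusted p = 0.0721 and 0.0708). Ccnd1, cyclin D1, was at 904 and 647, 679 and 269, and 336 and 274 CPM, and Ier3 at 73.2 and 69.9, 344 and 105, and 184 and 236 CPM. These genes also answer to signals other than FGFs.

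Over all 106 pathway genes outside the members, 95 were tested, of which 3 rose and 0 fell in early cells and 1 rose and 0 fell in late cells, beside 1.53% and 1.42% of all genes called. Fgf12 and Fgfbp1 entered these counts through the late libraries alone, and Hs6st3 and Ndst4 through the fibroblast libraries alone. Fgf15 entered through CRISPRa libraries only. With the replicate block 0 pathway genes were called in either comparison, so the calls of Hpse, Hs6st2 and Phlda1 were lost there.

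**Figure D5:**
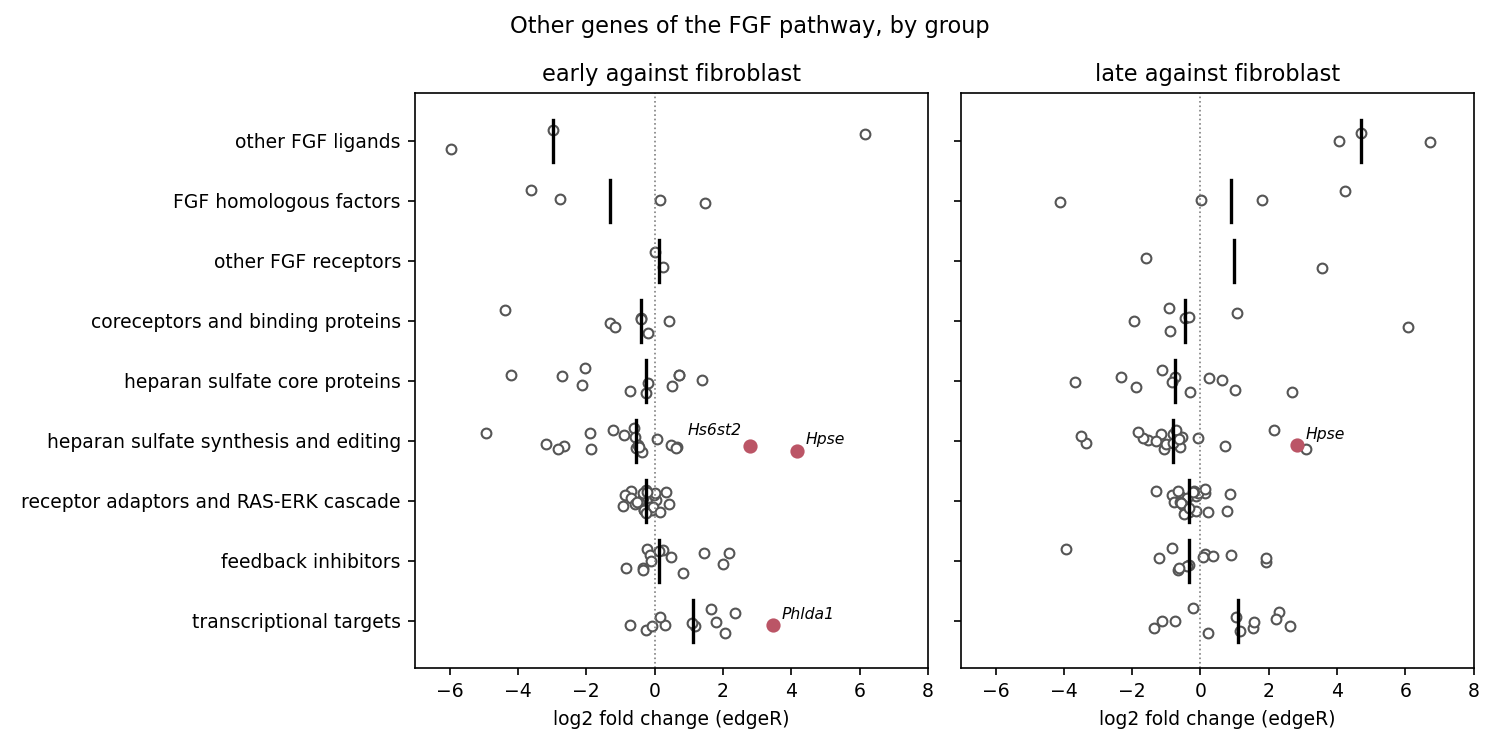
Log2 fold change from edgeR of the 95 tested pathway genes in 9 groups, for early (left) and late (right) cells against fibroblasts, with the median of each group as a vertical bar and called genes filled and named. Filled are Hpse, Hs6st2 and Phlda1 in early cells and Hpse in late cells. The adaptors and RAS to ERK genes lie within -1.30 to 0.86. Fgf12 and Fgfbp1 entered the points and medians through the late libraries alone, and Hs6st3 and Ndst4 through the fibroblast libraries alone. Fgf15 entered through CRISPRa libraries only.

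Genes with the most similar profiles were taken from 9563 expressed genes by Pearson's r of log2 CPM over the 6 libraries, given as a description without a test because the points share libraries and groups. For Fgf10 these were Cask (r = 0.999), a scaffold protein, at 136 and 132, 48.2 and 56.5, and 55.6 and 31.3 CPM, and Hebp2 (0.999). For Fgf2 they were Cck (0.993), which encodes cholecystokinin, at 443 and 336, 59.6 and 35.1, and 1.29 and 0.590 CPM, and Dph6 (0.991). For Fgf7 they were Nucb2 and Nisch (both 0.995), and for Fgfr1 Btbd7 (0.998) and Fam13b (0.997). Fgf18 was most like Lamb2 (0.996), a laminin chain, and Akap13 (0.994). Fgf9 was most like Secisbp2 (0.998) and Pdk2 (0.993), a kinase of mitochondrial metabolism with 243 CPM in late replicate 2 and no more than 35.6 CPM elsewhere. Fgf5 came with Tmem231 (0.986) and Crot (0.981), and Fgfr2 with Dmtf1 (0.984) and Nckap5l (0.983).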

How the data were processed

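RNA of 6 libraries was counted by the authors, who deposited raw read counts per Ensembl gene. Poly(A) selection is recorded in the labels' protocols. The submitters' processing notes name Trimmomatic 0.36, STAR 2.5.2b, featureCounts, Subread 1.5.2 and the build GRCm38. The sources used here do not give the strand setting, annotation release or handling of reads with several positions. Symbols, positions and exon lengths came from GENCODE M21 (GRCm38), and promoter windows from RefSeq (GRCm38.p6). The deposited counts were fitted with edgeR 4.0.16 (R 4.3.3): default expression filter, TMM, robust quasi-likelihood fit of 3 group means over all 6 libraries (3 residual degrees of freedom), Benjamini-Hochberg adjustment over 16688 genes, SE from the fold change and F statistic. The common biological coefficient of variation was 48.6%. Alternatives were RLE scaling, DESeq2 1.42.0, no filter, 4 libraries only, a replicate block, leaving out each library, CPM without TMM and longest transcripts as lengths. Members and lists were chosen with earlier results of these data known. Named genes were all members, and from each pathway list the called genes and the 2 with the largest mean CPM. Genes most alike needed a mean log2 CPM of at least 3.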

Additional observations from a re-analysis of the deposited data

How the results depend on the processing

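Numbers of calls depended strongly on the method. For all genes, members and listed pathway genes in turn, early against fibroblast called 255, 0 and 3, late against fibroblast 237, 1 and 1, and late against early 0, 0 and 0. DESeq2 called 4046, 3 and 25, then 4722, 4 and 33, then 1100, 2 and 13. Without a filter on low counts the numbers were 2337, 1 and 15, then 2495, 2 and 18, then 276, 1 and 3. With only the 4 libraries compared they were 1469, 1 and 8, then 1016, 2 and 8. With the replicate block they were 26, 0 and 0, then 9, 0 and 0, which ended the calls of Fgf2 in late cells (edgeR adjusted p = 0.0663), Hpse (0.0659 early, 0.0801 late), Hs6st2 (0.0731) and Phlda1 (0.0738). The replicate numbers are not stated to pair libraries, and same-numbered libraries deviated together at r = 0.121, 0.238 and 0.0859. Leaving out each library gave 0 to 823, 0 to 1 and 0 to 5, then 0 to 1058, 0 to 2 and 0 to 4, then 0 to 602 genes and 0 to 3 pathway genes. Of 259 member values under alternatives, 6 turned sign, all on leaving out a library. These were Fgf9 in late cells against fibroblasts (-0.07 to 2.64) and, late against early, Fgf5 (-0.78 to 1.42), Fgf10 (-2.83 to 0.32), Fgf18 (-0.23 to 2.0) and Fgfr2 (-0.35 to 1.45). Fgf1 in late cells ranged from -0.85 to 4.94. With the longest transcript as length, mean sums per kb were 189 and 13.5 for ligands in fibroblasts and late cells, and 93.5, 58.5 and 41.5 for receptors in fibroblast, early and late cells. The causes were not tested.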

Other observations

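Some further FGF genes differed between the libraries of a group. Fgf23, a hormone of bone that controls phosphate, reached 21.5 CPM in early replicate 2, where no other library exceeded 0.223 CPM, and was not kept by the expression filter. Fgf14, an FGF homologous factor of neurons, was at 11.4 and 12.4 CPM in fibroblasts, at 0 and 26.6 CPM in early libraries, and at 0.0834 and 1.26 CPM in late libraries. Fgf13, of the same family, was at 25.8 and 16.1 CPM in fibroblasts, 5.70 and 0.426 in early and 3.54 and 38.5 CPM in late libraries. Among the low ligands, Fgf15, an FGF of the embryo and gut, was chosen after its values were seen. It had 0 counts in fibroblasts, 13 and 1 in early libraries and 29 in the late libraries together. The late level was at least 10.3-fold higher against a floor of 3 counts over the fibroblast group, a bound that covers counting error only. Fgf15 reached the filter's minimum in 0 fibroblast, 1 early and 2 late libraries, so its values are a description without a test. The glypican Gpc3, also chosen after its values were seen, was at 3.16 and 13.8 CPM in fibroblasts, 0.490 and 0.426 CPM in early and 77.4 and 32.4 CPM in late libraries.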
